A study of Arabidopsis thaliana with 16 samples.

Results

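The transcripts described here are 40 single-gene probes of moderate signal that were lower in psag than in WT Arabidopsis thaliana on most arrays. They were chosen by measured values, out of 332 probes that met the level rule and 3439 probes in all. The level rule asked for a probe annotated with a single gene and a mean deposited WT intensity of 0.2 to under 2, and 14 probes of that level for named loci of plastid metabolism, chlorophyll synthesis, organelle RNA and histone H3 were left out. Each array was divided by its 75th percentile, which gives the relative intensity used below. On log2(relative intensity + 0.04), a t statistic with unequal variances compared psag replicates 1 to 6 with WT replicates 1 to 8, and the 40 lowest values were taken. The lower level in psag replicates 1 to 6 is therefore how these transcripts were found, and it is given as a description.

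The samples were total RNA of the psag mutant (8 arrays) and of WT (8 arrays), both of ecotype Columbia 0. Each genotype has replicates 1 to 8. The allele, the tissue, the age and the light conditions are not given in the sources used here, nor whether replicates came from separate plants. Any spread between replicates may therefore be technical. Markers of senescence, seed, root and photosynthetic leaf were looked for, and 0 of the 14 loci listed had a probe of their own.

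PSI-G, the protein for which psag is named, is a small membrane-spanning subunit of photosystem I. That complex of the thylakoid membrane uses light to reduce ferredoxin. The gene of PSI-G lies in the nucleus, like those of most chloroplast proteins, so its product is made in the cytosol and imported. Signals from the chloroplast to the nucleus, known as retrograde signals, adjust the transcripts of such nuclear genes to the state of the organelle.

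Psag replicates 7 and 8 stood apart from the other 14 arrays. Their log2 values correlated across probes at 0.943 with each other and at 0.778 to 0.841 with the other arrays, which correlated at 0.887 to 0.979 among themselves. They were also the dimmest, with 75th percentiles of 0.430 and 0.434, against 0.549 to 0.730 on the other 14 arrays. These 2 arrays are the only ones that the choice of the transcripts did not use. Their values are printed separately throughout. They are set against the same 8 WT arrays that entered the choice, so they are no independent test. The number of arrays limits the precision.

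In order of t, the 40 transcripts are AT3G04500, AT2G25640, AT3G20150, AT3G09250, AT4G23080, AT3G57120, AT5G62840, AT3G16310, AT3G02690, AT4G22190, AT5G38310, AT1G63720, AT1G69910, AT3G44570, AT4G07670, AT2G46630, AT2G29870, AT3G44050, AT5G19210, AT1G79480, AT1G02020, AT1G65500, Cpn60beta4, AT2G21720, AT4G39230, AT1G62010, AT5G63490, AT1G76050, AT1G01250, AT5G27860, AT4G21170, APS4, AT1G13990, AT3G15900, AT4G17440, AT2G41950, AT1G25500, AT4G25290, AT2G37510 and AT-HF. Only 3 of them carry a symbol other than the locus code in the gene table, and the table gives a product in words for 1. Roles stated below for the other loci are general knowledge of their protein families and do not come from the tables. The grouping by role was made after the values were seen and is used only to order the account.

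Over the 40 transcripts, psag replicates 1 to 6 minus WT ranged from -1.21 to -0.21 on the log2 scale, with a median of -0.44, against a median of 0.05 over the 332 probes of that level. Most differences were small: only AT1G02020 and AT2G25640 were lower by 1 or more. The median SD of a transcript was 0.16 in psag replicates 1 to 6 and 0.23 in WT, against 0.20 and 0.32 over the 332 probes. A t statistic favours probes with little spread, so this too follows from the choice. For 13 of the 40, all of psag replicates 1 to 6 lay below all WT arrays. That was so for 3.92% of the 332 probes, which are the same 13 transcripts, and for 2.73% of all 3439 probes.

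**Figure D1:**
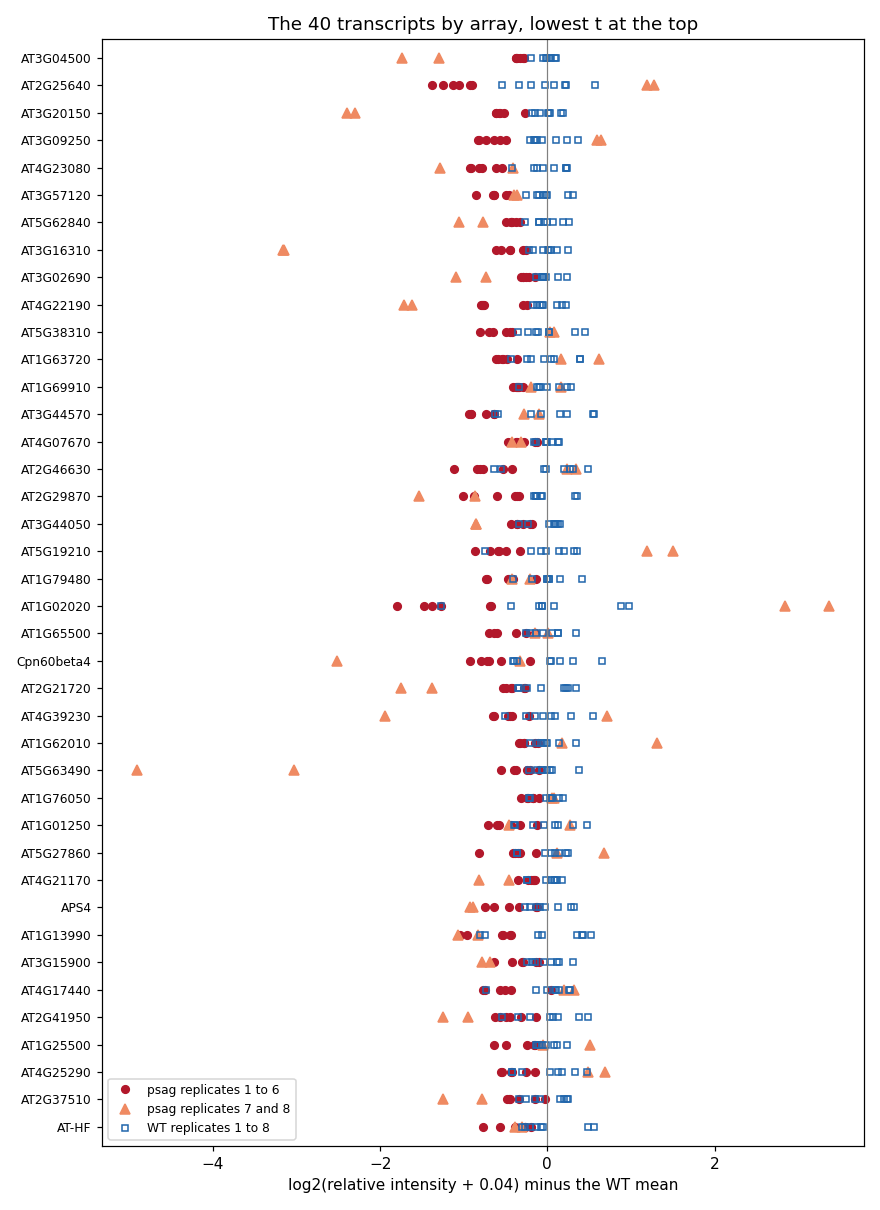
The 40 transcripts by array, with log2(relative intensity + 0.04) minus the transcript's WT mean on the x axis and the lowest t at the top. Filled circles are psag replicates 1 to 6, triangles psag replicates 7 and 8, and open squares the 8 WT arrays. The circles lie left of most squares by the choice of the transcripts, while the triangles range from far left (AT5G63490) to far right (AT1G02020).

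Microtubule motors and a nuclear pore protein were among the transcripts that were lower in both sets of psag arrays. AT3G20150 encodes a kinesin, a motor that moves along microtubules. Its relative intensity was 0.701 to 0.903 (median 0.724) in psag replicates 1 to 6 and 0.175 and 0.190 in psag replicates 7 and 8, against 0.964 to 1.25 (median 1.11) in WT. All 8 psag arrays lay below all 8 WT arrays, and psag replicates 7 and 8 lay far below the other psag arrays. The log2 difference from WT was -0.53 for psag replicates 1 to 6 (SD 0.13 in psag, 0.13 in WT) and -2.35 for psag replicates 7 and 8.

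AT3G44050 encodes another kinesin of the same subfamily and is described here after its values were seen. It had 1.18 to 1.41 (median 1.28) in psag replicates 1 to 6 and 0.871 and 0.869 in psag replicates 7 and 8, against 1.26 to 1.79 (median 1.71) in WT. Here the first 6 psag arrays overlapped with WT, while replicates 7 and 8 did not. AT3G16310 encodes a nucleoporin, a building block of the nuclear pore. Its relative intensity was 1.50 to 1.92 (median 1.69) in psag replicates 1 to 6 and 0.222 and 0.225 in psag replicates 7 and 8, against 1.98 to 2.76 (median 2.33) in WT. Of the 3 it had the largest gap between the sets of psag arrays, with log2 differences from WT of -0.43 for replicates 1 to 6 and -3.16 for replicates 7 and 8.

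Loci whose families bind or process RNA went different ways in psag replicates 7 and 8. AT3G04500, of the family of RNA-recognition-motif proteins, had the lowest t of all, -8.78, and also a small SD in psag replicates 1 to 6 (0.04 on the log2 scale, against 0.10 in WT). It was at 1.96 to 2.09 (median 2.01) in psag replicates 1 to 6 and at 1.02 and 0.739 in psag replicates 7 and 8, against 2.22 to 2.75 (median 2.58) in WT. The psag arrays did not overlap with WT, although the log2 difference for replicates 1 to 6 was only -0.33.

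AT5G19210 encodes a DEAD-box RNA helicase, of a family that unwinds or remodels RNA. It had 0.674 to 0.996 (median 0.826) in psag replicates 1 to 6 and 3.64 and 2.91 in psag replicates 7 and 8, against 0.735 to 1.62 (median 1.32) in WT. The 2 psag arrays left out of the choice were above every WT array, opposite to the other psag arrays. AT1G62010, of the mTERF family that acts on organelle transcription, likewise had 1.08 to 1.27 (median 1.13) in psag replicates 1 to 6 and 3.48 and 1.56 in psag replicates 7 and 8, against 1.19 to 1.75 (median 1.34) in WT. Only replicate 7 was above all WT arrays there.

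AT1G76050, of the family of pseudouridine synthases, which modify uridines in RNA, had the smallest difference of the 40, -0.21 on the log2 scale. Its values were 0.623 to 0.726 (median 0.674) in psag replicates 1 to 6 and 0.825 and 0.815 in psag replicates 7 and 8, against 0.665 to 0.894 (median 0.804) in WT. Psag replicates 7 and 8 were thus inside the WT range. AT2G37510, another RNA-recognition-motif protein and next to last by t, had 1.08 to 1.49 (median 1.15) in psag replicates 1 to 6 and 0.867 and 0.615 in psag replicates 7 and 8, against 1.20 to 1.82 (median 1.56) in WT.

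Among transcripts of enzymes and of protein folding, 3 have symbols. Cpn60beta4 is a subunit of the chloroplast chaperonin, the barrel-shaped complex in which imported proteins fold. It was at 0.158 to 0.286 (median 0.190) in psag replicates 1 to 6 and at 0.259 and 0.0256 in psag replicates 7 and 8, against 0.243 to 0.551 (median 0.345) in WT. Of psag replicates 1 to 6, only replicate 2, at 0.286, overlapped with the low end of WT, as did replicate 7. Psag replicate 8 alone was far below every other array. The log2 difference was -0.65 for replicates 1 to 6 (SD 0.25 in psag, 0.38 in WT). Its mean deposited intensity in WT, 0.214, was close to the lower bound of the level rule.

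APS4 is an ATP sulfurylase, the enzyme that activates sulfate for its reduction. It had 0.529 to 0.836 (median 0.682) in psag replicates 1 to 6 and 0.474 and 0.462 in psag replicates 7 and 8, against 0.749 to 1.15 (median 0.876) in WT. Replicates 7 and 8 lay below all WT arrays and below the other psag arrays. AT-HF, listed with the synonym HISN4, is the imidazole glycerol phosphate synthase of histidine synthesis. It was last by t, with 1.14 to 1.71 (median 1.56) in psag replicates 1 to 6 and 1.58 and 1.49 in psag replicates 7 and 8, against 1.58 to 2.90 (median 1.82) in WT. Both genotypes overlapped for this transcript.

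AT5G62840, of the phosphoglycerate mutase family, was lower on every psag array than on every WT array. Its relative intensity was 2.02 to 2.28 (median 2.12) in psag replicates 1 to 6 and 1.36 and 1.67 in psag replicates 7 and 8, against 2.38 to 3.44 (median 2.83) in WT. The log2 differences from WT were -0.42 for replicates 1 to 6 (SD 0.06 in psag, 0.17 in WT) and -0.91 for replicates 7 and 8.

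AT1G02020, of the nitroreductase family, which uses flavin to reduce its substrates, showed the widest divergence. It was at 0.253 to 0.598 (median 0.368) in psag replicates 1 to 6 and at 7.26 and 10.5 in psag replicates 7 and 8, against 0.381 to 1.97 (median 0.936) in WT. The transcript thus had the lowest log2 difference of the 40 for replicates 1 to 6, -1.21, and the highest for replicates 7 and 8, 3.10. Its SD was also the largest of the 40 in both sets, 0.45 in psag replicates 1 to 6 and 0.71 in WT.

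For transport, AT3G02690 belongs to the EamA-like family of membrane transporters. It had 0.797 to 0.902 (median 0.823) in psag replicates 1 to 6 and 0.447 and 0.587 in psag replicates 7 and 8, against 0.910 to 1.18 (median 0.969) in WT. No psag array reached the WT range, although the log2 difference for replicates 1 to 6 was only -0.25.

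The remaining transcripts among the 12 with the lowest t have products to which no role is given here. AT4G23080 differed between psag replicates 7 and 8. It had 0.815 to 1.07 (median 0.896) in psag replicates 1 to 6 and 1.18 and 0.626 in psag replicates 7 and 8, against 1.17 to 1.86 (median 1.60) in WT. Psag replicate 7 was level with the lowest WT array and all other psag arrays were below it, with log2 differences of -0.76 for replicates 1 to 6, -0.41 for replicate 7 and -1.29 for replicate 8.

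AT3G57120 was also below WT on every psag array, at 0.975 to 1.29 (median 1.13) in psag replicates 1 to 6 and 1.38 and 1.35 in psag replicates 7 and 8, against 1.49 to 2.23 (median 1.74) in WT. AT4G22190 had 1.37 to 2.01 (median 1.39) in psag replicates 1 to 6 and 0.698 and 0.753 in psag replicates 7 and 8, against 2.11 to 2.79 (median 2.29) in WT. Its psag replicates 3 and 4 lay near WT and apart from replicates 1, 2, 5 and 6, and without them the log2 difference of -0.61 was -0.77.

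AT2G25640 and AT3G09250 were opposite in the sets of psag arrays, without overlap in either. AT2G25640 was at 0.522 to 0.738 (median 0.643) in psag replicates 1 to 6 and at 3.48 and 3.29 in psag replicates 7 and 8, against 0.960 to 2.13 (median 1.45) in WT. Its log2 differences were -1.11 and 1.23. For AT3G09250 the values were 0.919 to 1.17 (median 1.02) in psag replicates 1 to 6 and 2.61 and 2.53 in psag replicates 7 and 8, against 1.44 to 2.15 (median 1.55) in WT. Its log2 differences were -0.68 and 0.62.

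AT5G38310 had 1.69 to 2.22 (median 1.99) in psag replicates 1 to 6 and 3.06 and 3.14 in psag replicates 7 and 8, against 2.32 to 4.09 (median 2.88) in WT, so that replicates 7 and 8 were inside the WT range. AT1G63720 had 0.306 to 0.373 (median 0.326) in psag replicates 1 to 6 and 0.557 and 0.774 in psag replicates 7 and 8, against 0.354 to 0.658 (median 0.491) in WT. It is the only one of the first 12 whose psag replicates 1 to 6 overlapped with WT.

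**Figure D2:**
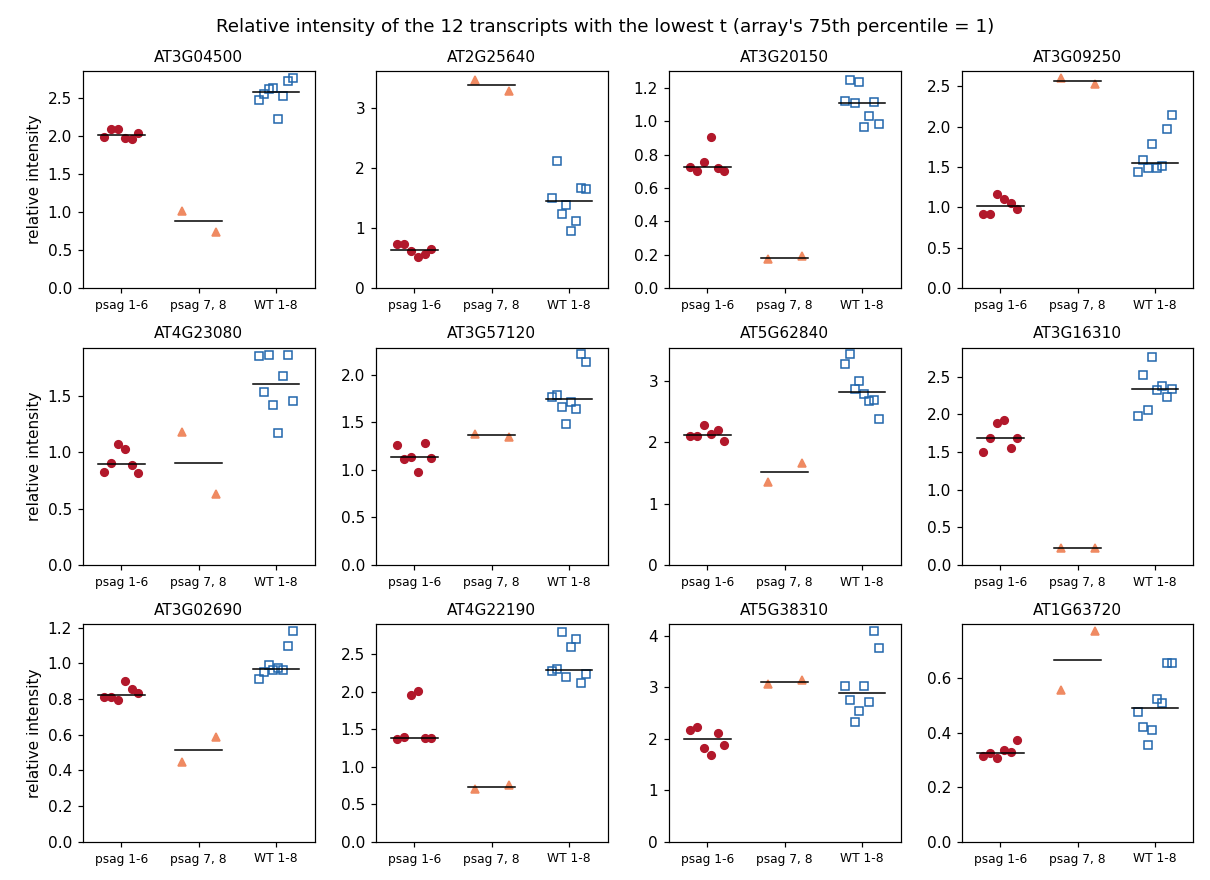
Relative intensity (array's 75th percentile = 1) of the 12 transcripts with the lowest t, on linear axes from 0. Circles are psag replicates 1 to 6, triangles psag replicates 7 and 8, squares WT replicates 1 to 8, and the bars are medians. For AT3G04500, AT3G20150, AT5G62840, AT3G16310, AT3G02690 and AT4G22190 the triangles lie below all other arrays, and for AT2G25640 and AT3G09250 above them.

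The other 28 transcripts, with ranks 13 to 40, overlapped with WT in psag replicates 1 to 6 except for 2, AT3G44570 and AT2G29870. AT3G44570 was at 1.21 to 1.50 (median 1.32) in psag replicates 1 to 6 and at 2.20 and 1.94 in psag replicates 7 and 8, against 1.51 to 3.48 (median 2.43) in WT. AT2G29870, of the aquaporin-like family of channel proteins, had 0.476 to 0.786 (median 0.701) in psag replicates 1 to 6 and 0.320 and 0.533 in psag replicates 7 and 8, against 0.894 to 1.29 (median 0.935) in WT. These 2 are named because they are the exceptions, after their values were seen.

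At the edge of the list the values ran on without a gap. The last 2 transcripts inside, AT2G37510 and AT-HF, had t of -2.80 and -2.75, and the first 2 outside, AT1G49870 and AT1G22700, had -2.72 and -2.64. AT1G22700 is the locus of PYG7, a protein needed for photosystem I to accumulate. It had 0.819 to 1.35 (median 1.19) in psag replicates 1 to 6 and 0.383 and 0.238 in psag replicates 7 and 8, against 1.08 to 1.85 (median 1.65) in WT. Its psag replicates 7 and 8 were below all WT arrays, whereas the other psag arrays overlapped with WT. AT1G49870 was at 0.859 to 1.30 (median 0.965) in psag replicates 1 to 6 and at 1.02 and 1.25 in psag replicates 7 and 8, against 1.05 to 1.49 (median 1.29) in WT.

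The arrays can also be set against each other number by number. Of the 40 transcripts, 29 were lower in psag than in the WT array of the same number at all of numbers 1 to 6, 10 at 5 of them and 1, AT4G21170, at 4. The first of these shares was 11.4% over the 332 probes, and the choice of the transcripts used these arrays. The transcripts lower in psag numbered 40 at replicates 3 and 4, 38 and 37 at replicates 1 and 2, and 36 and 37 at replicates 5 and 6. Psag replicates 5 and 6 were below all WT arrays for 22 transcripts each, fewer than the 28 to 34 of psag replicates 1 to 4. Over the 332 probes these counts were nearly level, at 42 and 43 for psag replicates 5 and 6 and at 41 to 49 for psag replicates 1 to 4. The lowest WT array was replicate 1 or 2 for 8 transcripts and replicate 3 or 4 for 12. It was replicate 5 or 6 for 11 and replicate 7 or 8 for 9. No pair of WT arrays thus set the lower limit for most of the transcripts. Over the 332 probes the shares were, in the same order, 23.8%, 34.0%, 17.8% and 24.4%. The choice of the transcripts used these WT arrays as well.

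How the transcripts stood in psag replicates 7 and 8 is the part of the data that their choice did not use on the psag side. Both arrays were below the WT median for 23 of the 40 transcripts (57.5%), against 46.7% of the 332 probes of that level and 34.4% of all probes. Both were below all WT arrays for 18 (45.0%), against 29.5% of the 332 and 18.8% of all probes. Both were above the WT median for 12 (30.0%), against 39.8% of the 332, and both were above all WT arrays for 5, against 25.9%. The median log2 difference of these arrays from WT was -0.37 over the 40 and -0.06 over the 332. The same WT arrays served in the choice and in these counts, and the part of this shared use in the shares was not tested. Without scaling, the dimmer arrays 7 and 8 were both below the WT median for 30 of the 40 transcripts and for 63.9% of the 332 probes.

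Psag replicates 7 and 8 were both lower than all of psag replicates 1 to 6 for 14 transcripts, where 37.7% of the 332 probes were, and both higher than all of them for 16, where 29.2% were. The other 10 met neither condition. A log2 difference of 1 or more from WT was seen in psag replicates 7 and 8 for 10 of the 40 transcripts below WT, where 21.7% of the 332 probes were, and for 3 of the 40 above WT, where 15.1% were. The share of the 40 below WT was thus close to that of all probes of this level. AT5G63490, whose family carries CBS domains and which is named here for these values, had relative intensities of 0.107 and 0 in psag replicates 7 and 8. It had 0.778 to 1.08 (median 0.932) in psag replicates 1 to 6, against 0.994 to 1.52 (median 1.14) in WT. It is the only one of the 40 listed at 0 on any array. Because of that 0 its mean log2 difference depends on the pseudocount. It was -3.97 with 0.04, -5.10 with 0.01 and -2.68 with 0.16, and -3.03 on replicate 7 alone. The other pseudocounts were tried on it after its values were seen.

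The 5 transcripts above all WT arrays in both replicates 7 and 8 were AT2G25640, AT3G09250, AT5G19210, AT1G02020 and AT4G25290. AT4G25290 had 0.882 to 1.18 (median 0.965) in psag replicates 1 to 6 and 2.14 and 1.86 in psag replicates 7 and 8, against 0.968 to 1.85 (median 1.39) in WT. The other 3 transcripts with both of these arrays above the WT median were AT2G46630, AT5G27860 and AT4G17440, besides AT5G38310, AT1G63720, AT1G62010 and AT1G76050 described above. AT2G46630 had 0.886 to 1.45 (median 1.12) in psag replicates 1 to 6 and 2.33 and 2.51 in psag replicates 7 and 8, against 1.25 to 2.77 (median 2.10) in WT. AT5G27860 had 1.06 to 1.73 (median 1.47) in psag replicates 1 to 6 and 3.06 and 2.07 in psag replicates 7 and 8, against 1.47 to 2.28 (median 1.99) in WT. Replicate 7 alone was above the WT range, with a log2 difference of 0.67 against 0.12 for replicate 8. AT4G17440 had 0.564 to 1.02 (median 0.668) in psag replicates 1 to 6 and 1.14 and 1.24 in psag replicates 7 and 8, against 0.580 to 1.20 (median 1.06) in WT. Without scaling, the mean of psag replicates 7 and 8 was below WT for 6 of these 12, namely AT5G38310, AT1G63720, AT2G46630, AT1G76050, AT5G27860 and AT4G17440.

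**Figure D3:**
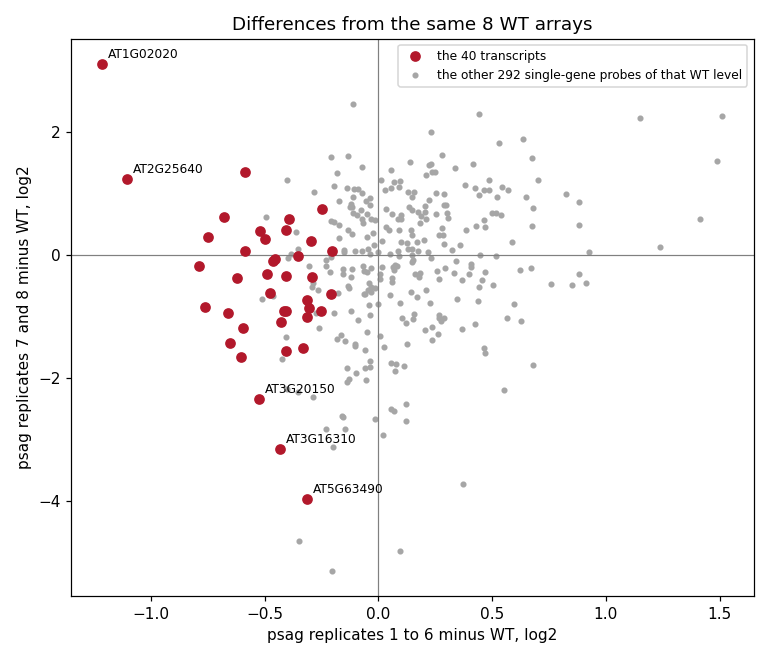
Log2 difference from WT in psag replicates 7 and 8 (y axis) against that in psag replicates 1 to 6 (x axis), for the 40 transcripts and, as small grey points, the rest of the 332 single-gene probes of that WT level. Both axes use the same 8 WT arrays. All 40 transcripts lie left of 0 by their choice, and on the y axis they spread up to 3.10 (AT1G02020). The lowest point, AT5G63490, is listed at 0 on psag replicate 8, so its height depends on the pseudocount.

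All 8 psag arrays were below all 8 WT arrays for 8 transcripts, which were AT3G04500, AT3G20150, AT3G57120, AT5G62840, AT3G16310, AT3G02690, AT4G22190 and AT2G29870. These were also the only such probes among the 332, or 2.41%. The count uses the arrays of the choice and is a description.

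In a fit across all 3439 probes with neighbouring replicates averaged to 4 measurements per genotype, 2 probes, or 0.0582%, were called lower in psag (limma, adjusted p under 0.05), and 1 of them was among the 40. It was AT4G23080, whose log2 intensity after quantile normalization averaged -0.77 ± 0.15 in psag and -0.01 ± 0.12 in WT (SD, n = 4 each). All 40 had a negative difference in this fit, with a median of -0.45, where the median over all probes was within 0.01 of 0. At an unadjusted p under 0.05 there were 17 of the 40 and 5.44% of all probes. Without psag replicates 7 and 8, 27 probes, or 0.785%, were called lower, and 3 of them were among the 40: AT4G23080, AT3G20150 and AT5G62840. With any other psag or WT pair left out, or with median centring in place of quantile normalization, 0 of the 40 were called. In these fits 10 to 16 of the 40 were lower in psag at an unadjusted p under 0.05 (limma). The same held for 145 to 174 of the 3439 probes. With neighbouring pairs as a random effect, 43 of the 3439 probes were called lower. Of the 40, 4 were called in that fit and AT4G23080 was not among them. Since the transcripts were chosen on this contrast, nothing is read from these counts.

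Membership depended on the settings of the rule. With 1 setting changed at a time, 27 to 40 of the 40 transcripts were chosen again over 16 settings. The lowest numbers were 27 when psag replicates 7 and 8 were used as well and 28 when probes were ranked by the difference of means. Under all 16 settings 12 transcripts were chosen again: AT3G20150, AT4G23080, AT3G57120, AT5G62840, AT3G16310, AT4G22190, AT5G38310, AT3G44570, AT2G46630, AT2G29870, AT1G79480 and Cpn60beta4. AT4G25290 and AT2G37510 were chosen least often, under 8 settings.

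**Figure D4:**
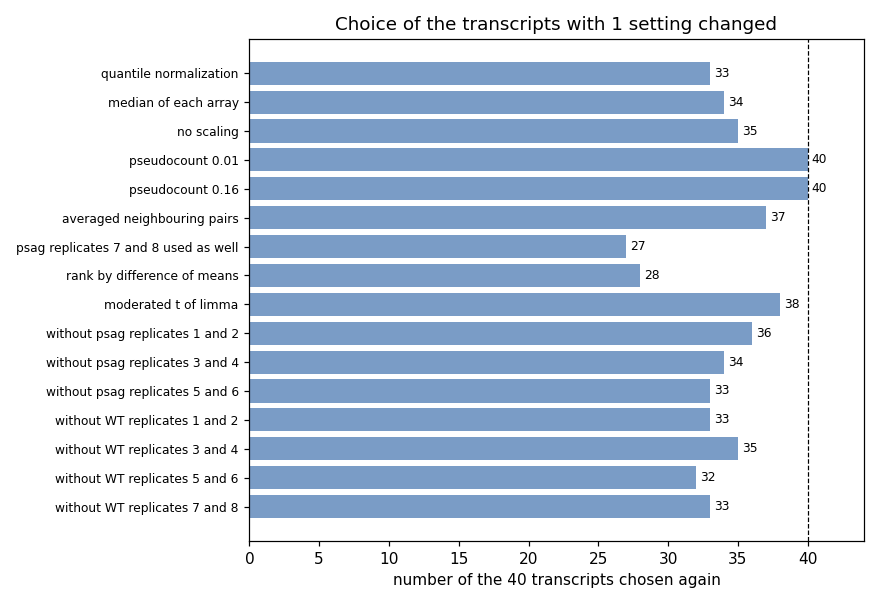
Number of the 40 transcripts chosen again (x axis) when 1 setting of the rule was changed (y axis), with the dashed line at 40. Other pseudocounts gave the same 40, while using psag replicates 7 and 8 as well gave 27.

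In position the transcripts were spread over the genome. Chromosomes 1 to 5 held 11, 6, 9, 8 and 6 of them, where 73, 60, 64, 71 and 62 of the 332 probes lay (330 have a chromosome in the gene table). The closest of them, AT1G25500 and Cpn60beta4, were 34 genes apart in the RefSeq gene order of assembly TAIR10.1, so none were neighbours. The gene length in that assembly had a median of 1972 bases over the 40 and of 2028 bases over the 332 probes. No test was made of these shares and lengths.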

How the data were processed

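Probe intensities of 16 arrays, 8 psag and 8 WT, were analysed. The deposited intensities are on a linear scale, as the values show. The sources used here do not say how the authors scanned, corrected or scaled them. Of 3439 probes, 692 had 1 gene in GEO's platform annotation, 870 several and 1877 none. Names came through gene identifiers from a RefSeq table of assembly TAIR10.1, which matched 690 of the 692. That table gives few products in words, so the planned counts by class of product were not made, and no promoter motifs were searched.

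The members, lists and settings were chosen with earlier results of these data known. Members followed the rule given in the opening, and no filter on low values was applied beyond its level window. Named were the 12 lowest t, members with a symbol, members with psag replicates 7 and 8 both above the WT median, and ranks 39 to 42; others named were chosen after their values were seen, and the text says so or lists them in full.

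Calls came from limma 3.58.1 in R 4.3.3 (lmFit, eBayes, Benjamini-Hochberg) on quantile-normalized log2(intensity + 0.0407), where the pseudocount is the 5th percentile of the positive intensities. Neighbouring replicates were averaged to 4 measurements per genotype, because earlier processing of these data took them to deviate together. No measure of this is given here, and the labels do not state it. On simulated data with 200 of 3439 probes lowered by 1 on the log2 scale, this fit recovered 69.0% with 2 false calls. Those numbers hold for the simulated data only. Recovery on the real arrays, where neighbouring replicates may deviate together and some psag arrays stand apart, was not tested. Python 3.11.15 did the rest. Other scalings, pseudocounts, filters and left-out replicates were tried.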

Additional observations from a re-analysis of the deposited data

Results flagged for a closer look

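The averaged pairs of each genotype were examined for the 24 named transcripts and the 2 just outside the list, 52 groups of 4 values in all. In 11 groups the gap between 1 pair and its nearest neighbour, as a share of the group's whole range, was above Dixon's critical value for 4 values. Chance alone would give about 1 in 20 groups, but that rate does not apply here. The t statistic that chose the transcripts favours psag replicates 1 to 6 and WT arrays that lie close together, which widens the relative gap of psag replicates 7 and 8, and some transcripts were named for their values in those 2 arrays. Psag replicates 7 and 8 were the distant pair in 9 of the 11, and nothing is read from that number. Below the other psag pairs were AT3G04500, with a gap of 0.975 of the range, AT3G20150 with 0.896, AT5G62840 with 0.881, AT3G16310 with 0.912 and AT3G02690 with 0.912. Above them were AT2G25640 with 0.863, AT1G63720 with 0.877, AT5G19210 with 0.848 and AT1G62010 with 0.894. For AT3G16310 this pair was at -1.92 on the log2 scale, against 0.70 to 0.96 in the other psag pairs. For AT5G19210 it was at 1.72, against -0.35 to -0.03.

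For AT4G23080, psag replicates 3 and 4 stood above the other psag pairs with a gap of 0.914, at 0.12 against -0.17 to -0.14 on the log2 scale. For AT1G62010, WT replicates 7 and 8 stood above the other WT pairs with a gap of 0.840, at 0.75 against 0.39 to 0.45. No explanation of these values was tested.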

How the results depend on the processing

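The number of probes called lower in psag by limma, 2, and that of the 40 transcripts among them, 1, depended on the settings, and the causes were not tested. Probes called lower numbered 1 after division by the 75th percentile, 0 with median centring, 1 with no normalization, 0 with the pseudocount at the 1st percentile, 0 without probes listed at 0 on all arrays, 1 without the dimmest 25% of probes, 135 with 16 separate arrays and 43 with neighbouring pairs as a random effect. Of the 40 transcripts, 15 were called with 16 separate arrays, 4 with pairs as a random effect (AT3G57120, AT5G62840, AT2G29870 and AT4G22190, so that the call of AT4G23080 was lost), and 0 with median centring, with no normalization, with the pseudocount at the 1st percentile and in both filtered fits. Leaving out 1 pair gave 0 to 27 probes and 0 to 3 of the 40. The highest numbers came without psag replicates 7 and 8, and every other pair left out gave 0 of the 40. In the 13 settings with 0 of the 40 called, 7 to 17 of them had an unadjusted p under 0.05 (limma). Over all probes of those fits the numbers were 85 to 180, and nothing is read from these counts.

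With a replicate block that joined same-numbered averaged pairs, the fit gave 1 probe and 0 of the 40. At an unadjusted p under 0.05 (limma) there were 17 of the 40 and 170 of all probes. The labels give shared numbers and no shared origin. Deviations of same-numbered pairs correlated across genotypes at 0.053, 0.108, 0.166 and 0.0016, so the numbers were not taken as pairing the samples. Of the 16 arrays, however, 12 correlated best with their own number across genotypes, which in the data alone goes the other way. No fit joined single arrays by number. Whether arrays of the same number share an origin was not tested.

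The choice of the transcripts kept 32 to 36 of the 40 when 1 pair was left out. For psag replicates 7 and 8, the median log2 difference over the 40, -0.37, was -0.84 without scaling, where the median over the 332 probes was -0.51, and it was between -0.43 and -0.30 in the other settings. By single transcript this was run only for those named with values. Among them, the difference without scaling changed sign for AT5G38310 (-0.43), AT1G63720 (-0.071), AT2G46630 (-0.19), AT1G76050 (-0.39), AT5G27860 (-0.089) and AT4G17440 (-0.21). With quantile normalization it changed sign for AT5G38310 (-0.12). The differences of psag replicates 1 to 6 kept their sign for all 24 named transcripts and the 2 outside the list in every setting run. With no background measure analysed here, the precision of dim values is unknown.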
